A study of Homo sapiens with 12 samples.

Results

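Collagen chains are the products of genes named COL, a type number, A and a chain number. All genes with such a platform symbol were taken, antisense genes apart, each through the probe set (a group of short probes read as 1 value) with the highest mean over the 12 arrays. That gave 43 chains among 19775 genes, from 112 probe sets, and 35 of the chains had several. Messenger RNA was measured in MCF-10A, an immortalised, non-tumorigenic human mammary epithelial line grown in culture, collected 48 h after retroviral infection. The 4 groups of 3 biological replicates received NICD, Notch1 L1601P+∆P, wild-type full-length Notch1 or the vector alone. NICD is the intracellular domain of the Notch1 receptor, free of the membrane. L1601P alters the part of the receptor where its subunits are joined, and ∆P removes the PEST region that limits how long the intracellular domain lasts. The sample descriptions add gfp to the name of NICD, without saying what it stands for. All groups were infected, the introduced genes came on top of the line's own NOTCH1, and the labels do not say how separately the replicates were cultured, so p-values cover only the spread among these 12, which may be partly technical.

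Collagens are matrix proteins in which 3 chains wind into a triple helix. Fibrillar chains form the fibrils of connective tissue, type IV chains form the sheet-like network of basement membranes, type VI chains form beaded filaments beside it, and the remaining classes anchor, cover or cross-connect these structures. Mammary basal cells, which MCF-10A resembles, sit on a basement membrane and take part in making it. Which chains are made together decides which trimers can form, since only certain chains combine.

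The labelled line was checked on markers of basal mammary epithelium: all 7 measured of 10 listed (KRT5, KRT14, CDH1, CDH3, EGFR, ITGA6 and LAMB3) lay over 5.672, the median of all deposited log2 values. With NICD, KRT5 (0.58) and KRT14 (0.57) rose and LAMB3 (-1.44), ITGA6 (-1.07) and EGFR (-0.72) fell against vector. With Notch1 L1601P+∆P, KRT5 (0.35) and KRT14 (0.58) rose, and LAMB3 (-0.38) and ITGA6 (-0.21) fell. The log2 of the summed signal of the 7 was 15.26 to 15.36 with NICD and 15.3 to 15.35 with Notch1 L1601P+∆P, against 15 to 15.09 with vector. The NOTCH1 probe set that differed with the introduced genes averaged 8.79 with NICD, 8.74 with Notch1 L1601P+∆P and 9.16 with full-length Notch1, against 6.54 with vector. Median signals per array were 5.64 to 5.697, and precision is limited by having 3 arrays a group. On the first principal component (69.65% of the variance) the NICD arrays stood apart, at 38.4 to 41.5. Of 7 fibroblast markers, 5 lay over the median (PDGFRB, THY1, FAP, DCN and TWIST2), LUM and PDGFRA did not, and the log2 of their summed signal was 11.77 to 11.84 with NICD and 11.54 to 11.59 with Notch1 L1601P+∆P, against 11.48 to 11.55 with vector. For 6 endothelial markers it was 8.055 to 8.163 with NICD and 8.156 to 8.165 with Notch1 L1601P+∆P, the second wholly above the 8.016 to 8.112 with vector. For 4 blood markers it was 7.357 to 7.511 with NICD and 7.454 to 7.535 with Notch1 L1601P+∆P, against 7.299 to 7.491 with vector. No endothelial or blood marker was called in either comparison. The 3′ minus 5′ signal of ACTB, a sign of RNA integrity, was 0.346 to 0.443 with NICD and 0.243 to 0.34 with vector. That of GAPDH was -0.0542 to -0.0129 with NICD and -0.0185 to 0.00486 with vector. The part of these differences in the collagen results was not tested. In cultures measured whole, fewer cells of a kind and less RNA per cell cannot be told apart.

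With NICD, the messages of some collagen chains rose and those of others fell, also within a class. The chains of the common basement membrane network (COL4A1, COL4A2), of type VI filaments (COL6A1, COL6A2, COL6A3), COL18A1 and COL5A3 rose, while COL8A1, the COL4A5 and COL4A6 pair, COL7A1 and COL16A1 fell. Of the 43 chains, 9 rose (20.9%, against 9.54% of all genes) and 7 fell (16.3%, against 18.1% of all genes) at a limma adjusted p under 0.05. In the deposited values the share that fell is therefore near that of all genes. Changes of at least 2-fold were called for 5 chains upward, where 1.79% of all genes passed, and for 3 chains downward, where 1.03% did. The median log2 fold change was 0.02 over the chains and -0.02 over all genes. Under cyclic loess scaling the called genes of this comparison were 51.6% higher ones, against 34.6% in the deposited values. Higher genes were 2677 of 5184 called, against 1887 of 5460 in the deposited values, and fewer genes were lower. The counts of chains stayed at 9 and 7. Under that scaling the share of chains that rose thus exceeded that of all genes by less. The share of chains that fell then lay above that of all genes. These differences in share were not tested. By level, 19 chains had every group mean at or over the median of all values, 22 lay under it in every group, and COL6A3 and COL2A1 did so in some groups only. Of the 22 dim chains, COL28A1 was called in a comparison with vector.

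**Figure D1:**
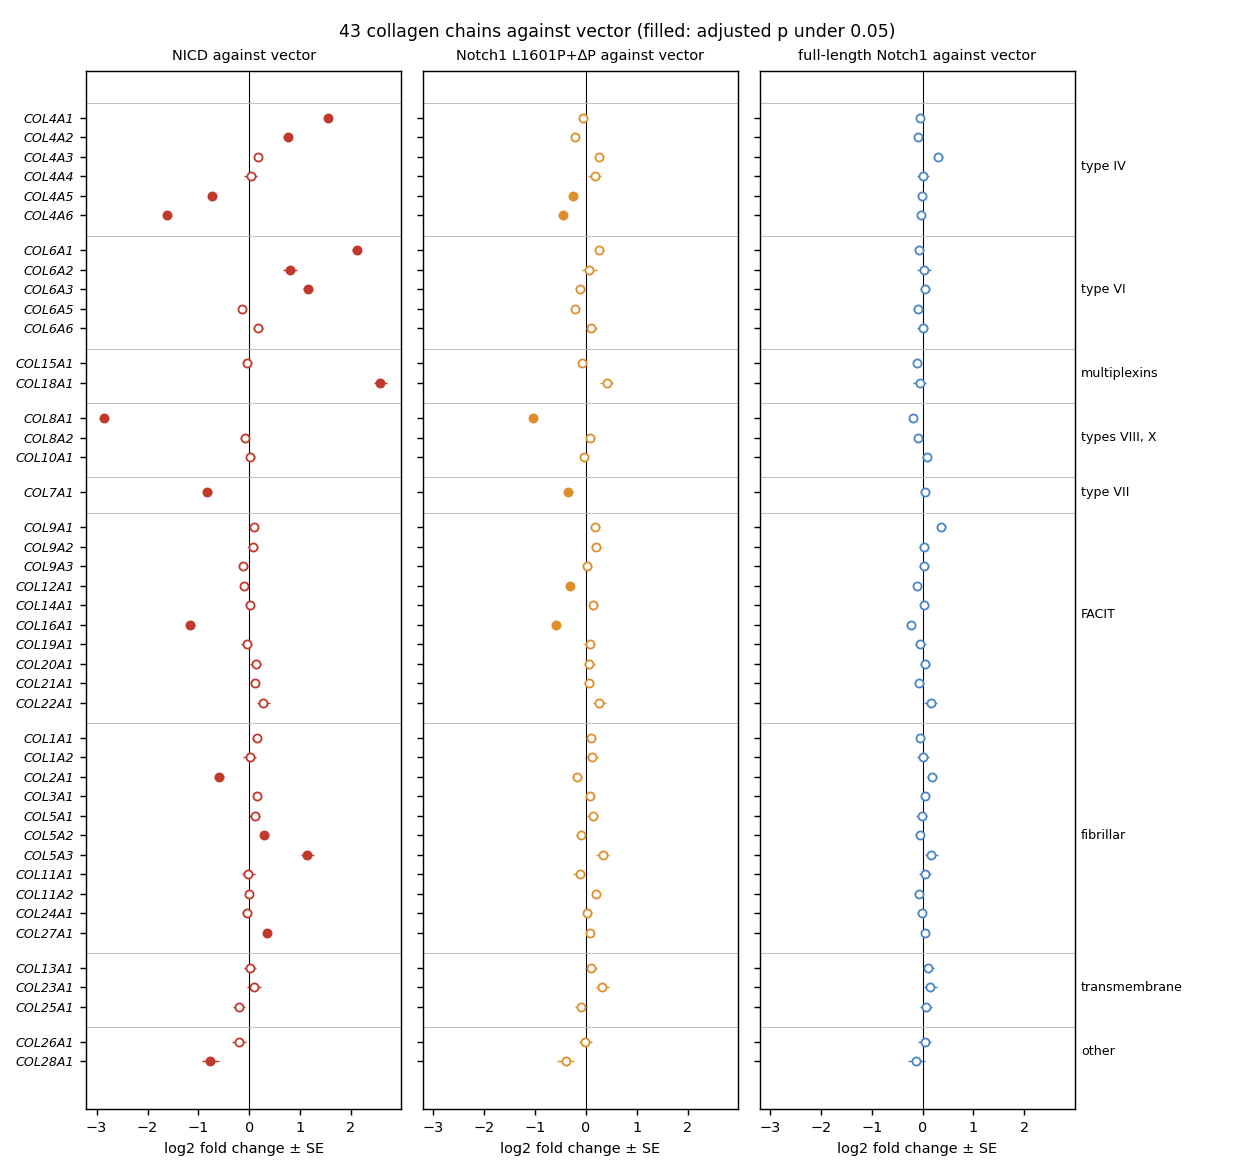
Log2 fold change against vector (horizontal axis, bars are the standard error of the fit) of 43 collagen chains ordered by class, for NICD, Notch1 L1601P+∆P and full-length Notch1 from left to right, with filled points at a limma adjusted p under 0.05. NICD has 16 filled points on both sides of 0, Notch1 L1601P+∆P has 6, all below 0, and full-length Notch1 has none.

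Type IV chains, which build the basement membrane network, moved in opposite directions with NICD: 2 of 6 rose, 2 fell, and COL4A3 and COL4A4 were not called. COL4A1 and COL4A2 combine with each other into the network found in nearly all basement membranes. COL4A1 had log2 signals of 9.67, 9.78 and 9.63 with NICD, 8.04, 8.08 and 8.12 with Notch1 L1601P+∆P, 8.06, 8.18 and 8.01 with full-length Notch1, and 8.13, 8.19 and 8.10 with vector. The 3 NICD arrays stood more than 1 unit above all others, which overlapped. The rise against vector was 1.56 ± 0.06 (SE), or 2.94-fold, with a limma adjusted p of 9.77e-10. COL4A2 had 9.78, 9.88 and 9.56 with NICD, 8.70, 8.84 and 8.77 with Notch1 L1601P+∆P, 8.89, 8.83 and 8.99 with full-length Notch1, and 8.92, 8.93 and 9.11 with vector. Again only the NICD arrays lay apart on the high side, by 0.76 ± 0.09 against vector (limma adjusted p = 2.23e-05). With Notch1 L1601P+∆P the COL4A2 arrays lay below all vector arrays, at -0.21 (limma adjusted p = 0.178).

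COL4A5 and COL4A6 combine with each other in the basement membranes of certain epithelia and of smooth muscle, and COL4A5 also joins COL4A3 and COL4A4. COL4A6 had log2 signals of 8.87, 9.004 and 8.88 with NICD, 10.05, 10.08 and 10.13 with Notch1 L1601P+∆P, 10.49, 10.49 and 10.53 with full-length Notch1, and 10.54, 10.56 and 10.52 with vector. NICD was lowest, Notch1 L1601P+∆P lay between, and neither overlapped the vector arrays. The fall was 3.08-fold with NICD (-1.62 ± 0.05, limma adjusted p = 1.39e-10) and smaller with Notch1 L1601P+∆P (-0.45 ± 0.05, limma adjusted p = 0.000192). COL4A5 averaged 10.05 ± 0.01 with NICD, 10.52 ± 0.03 with Notch1 L1601P+∆P, 10.78 ± 0.12 with full-length Notch1 and 10.78 ± 0.09 with vector (SD, n = 3 each). Its order was the one of COL4A6, with changes of -0.74 with NICD (limma adjusted p = 2.26e-06) and -0.26 with Notch1 L1601P+∆P (limma adjusted p = 0.0374). COL4A3 and COL4A4, the partners of COL4A5 in the kidney, averaged 4.502 and 4.04 with NICD against 4.33 and 4.01 with vector. Both lay well under the median of all values in each group.

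The type IV genes lie in head-to-head pairs, so that 1 stretch of DNA runs between the starts of both partners. In GRCh38.p14 the RefSeq start sites of COL4A1 and COL4A2 on chromosome 13 are 126 bases apart. Those of COL4A4 and COL4A3 on chromosome 2 are 418 bases apart, and COL4A5 on chromosome X lies 379 or 1415 bases from the 2 starts of COL4A6. With NICD both members of the first pair rose, both members of the X-linked pair fell, and neither member of the chromosome 2 pair was called. The stretches are shown because they lie between genes that were called in the same direction or, for COL4A3, not at all: first the whole interval of COL4A1 and COL4A2 (plus strand, chr13:110307158-110307283), then the 250 bases before COL4A5 (plus strand, chrX:108439588-108439837) and before COL4A3 (plus strand, chr2:227164374-227164623), each 5′ to 3′. Capitals mark, on either strand, GTGGGAA (a run that the Notch partner RBPJ binds), the GC box GGGCGG, the CCAAT box, and the TATA box in its form TATAAA.
COL4A1 and COL4A2: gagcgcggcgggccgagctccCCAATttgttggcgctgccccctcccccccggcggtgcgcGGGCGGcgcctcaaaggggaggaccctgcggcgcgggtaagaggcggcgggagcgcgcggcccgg
COL4A5: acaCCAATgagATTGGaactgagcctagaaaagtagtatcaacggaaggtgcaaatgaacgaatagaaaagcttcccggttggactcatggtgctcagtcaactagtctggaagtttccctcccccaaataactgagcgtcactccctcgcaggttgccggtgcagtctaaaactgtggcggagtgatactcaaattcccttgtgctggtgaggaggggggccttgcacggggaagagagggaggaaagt
COL4A3: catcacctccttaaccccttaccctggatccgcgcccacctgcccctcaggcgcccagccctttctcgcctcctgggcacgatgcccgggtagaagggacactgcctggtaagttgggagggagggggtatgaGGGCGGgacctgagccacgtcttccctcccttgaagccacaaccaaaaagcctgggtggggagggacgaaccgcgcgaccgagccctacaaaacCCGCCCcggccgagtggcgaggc
The interval between COL4A1 and COL4A2 held 1 GGGCGG and 1 CCAAT and was 80.2% G and C. The window of COL4A5 held 2 CCAAT and was 51.2% G and C, and that of COL4A3 held 2 GGGCGG at 66.4%. None of the 3 held GTGGGAA or TATAAA. Of 35116 RefSeq windows of 250 bases, 5.43% held GTGGGAA, 42.6% GGGCGG, 32% CCAAT and 10.7% TATAAA, and over 126 bases the shares were 2.65%, 34.6%, 21.1% and 5.87%. A match is a run of letters, and its absence concerns these windows alone.

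Type VI collagen is a filament of COL6A1, COL6A2 and COL6A3, which form 1 trimer, and all 3 of them rose with NICD, while COL6A5 and COL6A6, which can stand in for COL6A3, were not called. COL6A1 had log2 signals of 9.09, 8.94 and 8.98 with NICD, 7.07, 7.19 and 7.20 with Notch1 L1601P+∆P, 6.72, 6.94 and 6.83 with full-length Notch1, and 7.07, 6.70 and 6.90 with vector. Its NICD arrays lay far above the rest, by 2.11 ± 0.09 or 4.32-fold against vector (limma adjusted p = 2.16e-09). COL6A3 had 5.80, 5.75 and 5.99 with NICD, 4.66, 4.57 and 4.51 with Notch1 L1601P+∆P, 4.77, 4.69 and 4.77 with full-length Notch1, and 4.59, 4.95 and 4.53 with vector. It passed the median of all values with NICD only, a rise of 1.16 ± 0.10 (limma adjusted p = 2.08e-06). COL6A2 had 6.62, 6.55 and 6.49 with NICD, 5.63, 5.84 and 5.996 with Notch1 L1601P+∆P, 5.77, 6.03 and 5.52 with full-length Notch1, and 5.84, 5.48 and 5.94 with vector. The groups other than NICD overlapped, and the NICD rise was 0.81 ± 0.14 (limma adjusted p = 0.000751). COL6A5 and COL6A6 averaged 3.31 and 3.47 with NICD against 3.45 and 3.30 with vector, near the floor of the deposited values.

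COL18A1, a basement membrane proteoglycan whose end piece is endostatin, had the largest rise of the 43 chains. Its log2 signals were 8.96, 9.17 and 9.11 with NICD, 7.07, 6.73 and 6.93 with Notch1 L1601P+∆P, 6.77, 6.26 and 6.30 with full-length Notch1, and 6.41, 6.54 and 6.56 with vector. The NICD rise was 5.97-fold (2.58 ± 0.13, limma adjusted p = 7.80e-09). All 3 Notch1 L1601P+∆P arrays lay above the vector arrays, at 0.41 ± 0.13, without passing the test (limma adjusted p = 0.0905). The other multiplexin, COL15A1, averaged 2.87 with NICD and 2.91 with vector, near the lowest deposited value of 2.27. RefSeq gives 2 windows for COL18A1, at different starts, and these data do not tell which start was used. COL18A1 was the 1 chain of 31 with a window (3.23%) that held GTGGGAA, and 5.43% of all single windows held it. A chain counted if any of its windows held the letters, so these shares are not on the same scale. The COL18A1 window with GTGGGAA is shown (GRCh38.p14, plus strand, chr21:45455272-45455521, same capitals).
COL18A1: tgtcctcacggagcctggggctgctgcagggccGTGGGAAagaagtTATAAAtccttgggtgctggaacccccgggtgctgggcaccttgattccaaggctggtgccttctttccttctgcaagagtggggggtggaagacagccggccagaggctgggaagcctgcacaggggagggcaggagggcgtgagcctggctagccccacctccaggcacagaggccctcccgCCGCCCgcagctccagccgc
That window also held 1 TATAAA and 1 GGGCGG, the last on the minus strand. The window at the other start held no GTGGGAA and no TATAAA, and it held 9 GGGCGG at 88.4% G and C.

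COL8A1, a short-chain collagen of vessel walls and of the membrane under the corneal endothelium, fell most. It had log2 signals of 5.91, 5.94 and 6.14 with NICD, 7.84, 7.71 and 7.85 with Notch1 L1601P+∆P, 8.72, 8.65 and 8.60 with full-length Notch1, and 8.81, 8.82 and 8.91 with vector. No pair of groups overlapped, and the levels ran in the order NICD, Notch1 L1601P+∆P, full-length Notch1, vector. Against vector it was 7.21-fold lower with NICD (-2.85 ± 0.07) and 2.07-fold lower with Notch1 L1601P+∆P (-1.05 ± 0.07, limma adjusted p = 1.82e-06). With full-length Notch1 the difference was -0.19 ± 0.07 (limma adjusted p = 0.87). Its trimer partner COL8A2 averaged 5.10 with NICD, 5.27 with Notch1 L1601P+∆P and 5.10 with full-length Notch1, against 5.18 with vector, and was not called (-0.09 with NICD, limma adjusted p = 0.538). COL10A1, the third chain of this class, averaged 4.54 with NICD and 4.52 with vector.

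COL7A1, which forms the anchoring fibrils that fasten epithelium to the tissue below, had 6.58, 6.41 and 6.42 with NICD, 6.89, 7.11 and 6.85 with Notch1 L1601P+∆P, 7.16, 7.44 and 7.40 with full-length Notch1, and 7.38, 7.24 and 7.27 with vector. NICD and Notch1 L1601P+∆P arrays lay below the vector arrays, at -0.83 ± 0.09 (limma adjusted p = 1.40e-05) and -0.34 ± 0.09 (limma adjusted p = 0.0444). COL16A1, a fibril-associated collagen, had 5.73, 5.65 and 5.86 with NICD, 6.29, 6.40 and 6.26 with Notch1 L1601P+∆P, 6.79, 6.57 and 6.66 with full-length Notch1, and 6.79, 6.86 and 7.06 with vector. Its group means ran in the step order of COL8A1, which those of COL7A1 did not, full-length Notch1 being highest there. The COL16A1 changes were -1.16 ± 0.09 with NICD (limma adjusted p = 3.91e-07) and -0.59 ± 0.09 with Notch1 L1601P+∆P (limma adjusted p = 0.00135). COL28A1, a chain with von Willebrand factor domains, had 4.18, 4.01 and 3.64 with NICD, 4.15, 4.57 and 4.22 with Notch1 L1601P+∆P, 4.79, 4.51 and 4.48 with full-length Notch1, and 5.04, 4.59 and 4.51 with vector. The NICD arrays lay below the vector arrays, though every group mean lay under the median of all values, where folds are compressed (-0.77 ± 0.17, limma adjusted p = 0.00391). Of the 10 fibril-associated chains COL16A1 was the one called with NICD, and the median log2 fold change of the class was 0.04.

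COL12A1, another fibril-associated chain, differed from the step order of COL8A1 and COL16A1. It averaged 7.87 ± 0.01 with NICD, 7.66 ± 0.04 with Notch1 L1601P+∆P and 7.87 ± 0.06 with full-length Notch1, against 7.98 ± 0.03 with vector (SD, n = 3 each). It fell with Notch1 L1601P+∆P (-0.32, limma adjusted p = 0.00235), the group with its lowest mean, and was not called with NICD (-0.10, limma adjusted p = 0.153). NICD was higher than Notch1 L1601P+∆P for this chain, by 0.22 (limma adjusted p = 0.00804).

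Of 11 fibrillar chains, which form or regulate the banded fibrils of connective tissue, 3 rose with NICD, 1 fell, and the median log2 fold change was 0.10. COL5A3 had log2 signals of 7.01, 7.20 and 7.33 with NICD, 6.33, 6.44 and 6.33 with Notch1 L1601P+∆P, 6.06, 6.42 and 6.14 with full-length Notch1, and 6.01, 6.29 and 5.82 with vector. Its NICD arrays lay above all others, with a rise of 1.14 ± 0.12 (limma adjusted p = 1.42e-05). COL27A1, a cartilage fibril chain, averaged 6.45 with NICD and 6.09 with vector (0.36, limma adjusted p = 0.00207). COL5A2 averaged 7.39 with NICD and 7.10 with vector (0.30, limma adjusted p = 0.0233), and its usual partner COL5A1 averaged 4.98 with NICD and 4.87 with vector (limma adjusted p = 0.526). The COL5A2 call ended when NICD replicate 1 or 2, or vector replicate 1 or 3, was left out (limma adjusted p from 0.0539 to 0.0762). COL2A1, the main chain of cartilage, fell to 5.12 with NICD, against 5.71 with vector (-0.60, limma adjusted p = 0.000451). COL1A1 and COL1A2, the chains of type I collagen, averaged 7.85 ± 0.17 and 5.23 with NICD against 7.70 ± 0.14 and 5.22 with vector (SD, n = 3 each), and on these probe sets neither was called (limma adjusted p = 0.289 and 0.971). None of the 3 transmembrane chains was called with NICD, where COL13A1 averaged 6.43 against 6.41 with vector, nor did any of them have an unadjusted p under 0.05.

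**Figure D2:**
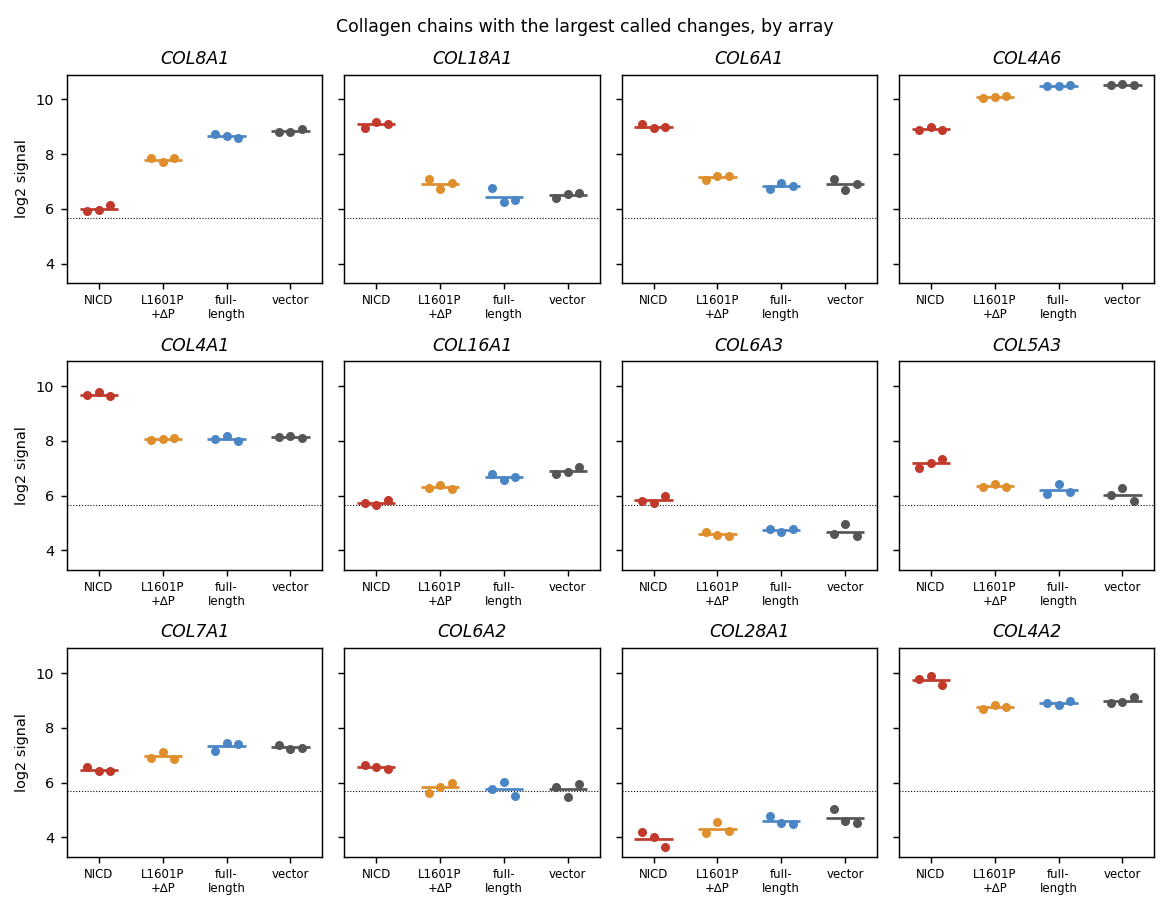
Log2 signal (vertical axis) on each array for the 12 chains with the largest called changes, with groups from left to right NICD, Notch1 L1601P+∆P, full-length Notch1 and vector, points for arrays and bars for group means, and a dotted line at 5.672, the median of all values. The chains that rose show NICD apart from the other 3 groups, and COL8A1, COL4A6, COL16A1 and COL7A1 show Notch1 L1601P+∆P between NICD and vector.

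The probe sets of a chain were then set side by side, since the brightest one need not speak for all. Here p-values were adjusted over all 54675 probe sets. Both sets of COL4A1 (1.56 and 1.28), COL4A2 (0.76 and 0.89), COL18A1 (2.58 and 1.98), COL5A3 (1.14 and 1.44), COL7A1 (-0.83 and -0.47), COL4A5 (-0.74 and -0.63) and COL6A2 (0.81 and 0.24) were called with NICD, as were all 3 of COL4A6 (-1.62, -1.35 and -0.91). COL8A1 fell on its 2 brighter sets (-2.85 and -2.48), while the third set averaged 3.16 with NICD and 3.25 with vector. COL6A1 had 8 sets with changes of 0.05 to 2.11, of which 4 were called, all upward. On the mean of its sets the COL6A1 change was 0.56. The second set was not called for COL28A1 (-0.41, limma adjusted p = 0.0524), COL5A2 (0.16, limma adjusted p = 0.3) or COL2A1 (-0.13, limma adjusted p = 0.67). On the mean of its sets the NICD change of COL2A1 was -0.36, against -0.60 on the brightest. COL6A3 and COL16A1 had 1 set each.

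Several chains looked different on a dimmer set. COL27A1 rose more on 2 of its 5 sets than on the brightest. The larger of these changes was 2.18, from a set averaging 6.25 ± 0.28 with NICD, 4.21 ± 0.12 with Notch1 L1601P+∆P and 4.08 ± 0.21 with full-length Notch1, against 4.07 ± 0.15 with vector (SD, n = 3 each, limma adjusted p = 1.37e-07). COL1A1 was called on 2 of its 5 sets although not on its brightest. The second brightest averaged 7.52 ± 0.25 with NICD, 7.09 ± 0.15 with Notch1 L1601P+∆P and 6.54 ± 0.03 with full-length Notch1, against 6.33 ± 0.15 with vector (SD, n = 3 each). On that set COL1A1 rose with NICD (1.19, limma adjusted p = 1.07e-05) and with Notch1 L1601P+∆P (0.76, limma adjusted p = 0.00408), unlike on its brightest set, so the level of type I collagen message is uncertain here. COL12A1 (-0.29) and COL13A1 (0.36) were likewise called with NICD on a dimmer set alone. No chain had sets called in both directions.

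**Figure D3:**
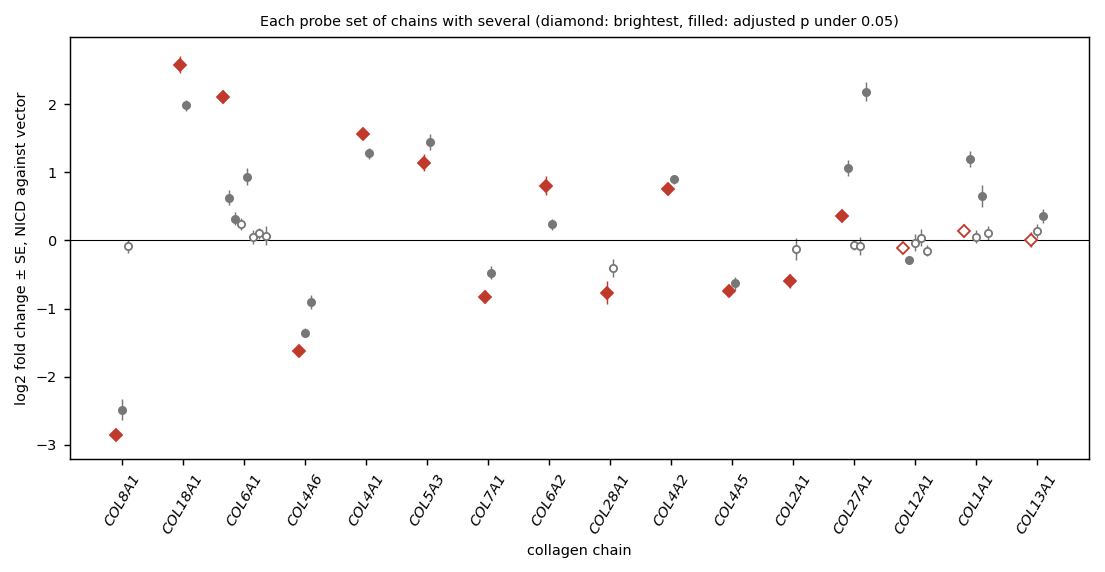
Log2 fold change with NICD against vector (vertical axis, bars are the standard error of the fit) of each probe set of chosen chains with several, diamonds for the brightest set, circles for the others, filled at an adjusted p under 0.05 over all probe sets. Shown are chains called in a comparison with vector, COL5A2 apart, and COL1A1 and COL13A1. Filled points of 1 chain share a sign, while COL8A1, COL6A1, COL27A1 and COL1A1 spread from near 0 to beyond 1 in size.

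With Notch1 L1601P+∆P, 6 chains were called against vector. None of the 43 rose by limma, a count near the 2.16% of all genes that did, and 6 fell (14%, against 2.95% of all genes): COL8A1, COL16A1, COL4A6, COL7A1, COL12A1 and COL4A5. Higher values at an unadjusted p under 0.05 were found for 6 chains (14%, against 8.42% of all genes), namely COL11A2, COL18A1, COL23A1, COL4A3, COL5A3 and COL6A1. With trend and robust moderation COL18A1 was called higher, and on the mean of all probe sets COL18A1, COL1A1 and COL6A1 were, beside the second probe set of COL1A1 given above. The comparisons with vector share the vector arrays. The falls of COL8A1, COL4A6, COL16A1 and COL12A1 held in all 18 alternatives run on each, single dimmer probe sets apart. That of COL7A1 ended without any 1 of 8 arrays (all 3 of vector, Notch1 L1601P+∆P replicates 1 and 3, NICD replicates 2 and 3, full-length Notch1 replicate 3), with limma adjusted p from 0.0528 to 0.146, and with cyclic loess (0.0865), on the mean of its probe sets (0.155) and in a 2-group fit (0.0653). That of COL4A5 ended without any 1 of 6 arrays (vector 1 and 2, all 3 of Notch1 L1601P+∆P, NICD 1), with limma adjusted p from 0.0543 to 0.133, and with cyclic loess (0.0927) and in a 2-group fit (0.065).

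Full-length Notch1 left the chains near vector. By limma no chain rose or fell, where 0.0303% of all genes rose and 0.00506% fell, and none was called under any alternative run. An unadjusted p under 0.05 was found for 5 chains (11.6%, against 5.32% of all genes): COL4A3 and COL9A1 were higher (0.31 and 0.37), and COL8A1, COL16A1 and COL12A1 lower (-0.19, -0.23 and -0.11). The median log2 fold change of the 43 chains was 0.01.

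The Notch1 forms were also compared with each other directly. NICD was higher than Notch1 L1601P+∆P for 10 chains (8.73% of all genes were) and lower for 6 (11.1% of all genes). The 10 were the 9 that rose against vector and COL12A1. On the brightest probe sets the differences of COL18A1 (2.17, limma adjusted p = 8.22e-08), COL6A1 (1.85, limma adjusted p = 1.57e-08) and COL4A1 (1.62, limma adjusted p = 1.65e-09) were largest among those higher with NICD. On the mean of its probe sets the COL6A1 difference was 0.37 and still called. Among those lower, COL8A1 (-1.80), COL4A6 (-1.17) and COL16A1 (-0.57) led. The call of COL12A1 (limma adjusted p = 0.157) and that of COL2A1 (0.184) ended on the mean of their probe sets, and that of COL27A1 without Notch1 L1601P+∆P replicate 2 or NICD replicate 1 (0.0543 to 0.0599). NICD was higher than full-length Notch1 for 9 chains (10.1% of all genes were) and lower for 8 (17% of all genes). The eighth was COL9A1, a fibril-associated cartilage chain, which averaged 5.07 with NICD and 5.36 with full-length Notch1 (-0.29, limma adjusted p = 0.0348) and lost the call without any 1 of 5 arrays (all 3 of full-length Notch1, NICD 2 and 3, limma adjusted p from 0.0532 to 0.126) and on the mean of its probe sets (-0.12, limma adjusted p = 0.128). The call of COL28A1 in that comparison ended without NICD replicate 3 or full-length Notch1 replicate 1 (limma adjusted p from 0.0511 to 0.0564).

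The last comparison set Notch1 L1601P+∆P against full-length Notch1, the mutant receptor against the wild-type one. None of the chains was higher by limma, beside 1.86% of all genes, and 6 were lower, also beside 1.86% of all genes. Over all 54675 probe sets, of which 1.63% were called, COL18A1 and COL1A1 were higher on a dimmer set only. Their differences there were 0.39 (limma adjusted p = 0.0377) and 0.55 (limma adjusted p = 0.0422). At an unadjusted p under 0.05, COL11A2, COL18A1 and COL6A1 were higher, where 8.74% of all genes were. The lower chains were COL8A1 (-0.86 ± 0.07, limma adjusted p = 1.45e-05), COL4A6 (-0.42 ± 0.05, limma adjusted p = 0.000538), COL7A1 (-0.38), COL16A1 (-0.36), COL4A5 (-0.26) and COL12A1 (-0.21). The differences of COL8A1 and COL4A6 held in all 18 alternatives run on each, single dimmer probe sets apart. The other 4 had limma adjusted p between 0.034 and 0.0499, and their number depended on single arrays: 2 chains were left in all without Notch1 L1601P+∆P replicate 1 or full-length Notch1 replicate 3, and 3 without Notch1 L1601P+∆P replicate 2 or 3, full-length Notch1 replicate 2, vector replicate 2 or NICD replicate 1. A fit of these 2 groups alone left 2, and the mean of all probe sets 3.

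Genes that make, cut, link and bind collagen were read from lists of 60 genes, of which 58 were measured and COLGALT2 and DDR1 were not analysed here. With NICD 11 rose (19%) and 15 fell (25.9%), beside 9.54% and 18.1% of all genes. Of 14 enzymes that modify the chains, 2 rose and 5 fell. PLOD2, a lysyl hydroxylase that prepares cross-links, averaged 10.41 with NICD and 10.96 with vector (-0.55, limma adjusted p = 2.74e-05). P3H4, part of a lysyl hydroxylase complex, COLGALT1, which adds galactose, and CRTAP, a helper of prolyl hydroxylation, changed by -0.53, -0.33 and -0.28. P4HA2, a catalytic subunit of the prolyl hydroxylase that stabilises the helix, rose by 0.47 (limma adjusted p = 5.04e-05), and P3H2, which acts on type IV collagen, rose by 0.33.

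Of 7 genes of folding and export, the prolyl isomerases FKBP10 (-0.99 ± 0.25, limma adjusted p = 0.0106) and FKBP14 (-0.43) fell, and CREB3L1, a transcription factor of collagen-secreting cells, rose (0.41). SERPINH1, the collagen chaperone, averaged 9.89 with NICD and 10.09 with vector (limma adjusted p = 0.0511). The propeptide proteases BMP1 (0.45) and FURIN (0.32) rose, 2 of 9 in their list, and none fell. Of 5 lysyl oxidases, which cross-link the finished fibrils, 4 fell: LOX (-0.71, limma adjusted p = 9.01e-07), LOXL1 (-0.66), LOXL2 (-0.45) and LOXL3 (-0.27). LOX averaged 8.11 with NICD and 8.81 with vector. LOXL4 averaged 5.72 with NICD and 5.56 with vector.

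Receptors were split, with 2 higher and 3 lower of 9. The integrin subunits ITGA2 (-0.96, limma adjusted p = 8.73e-07) and ITGA10 (-0.84), both collagen-binding, and their partner ITGB1 (-0.53) fell. DDR2, a receptor tyrosine kinase for fibrillar collagen, averaged 7.01 with NICD and 5.90 with vector (1.10 ± 0.18, limma adjusted p = 0.000556), and ITGA1 rose by 0.39. On the brightest probe sets, fibril-binding proteins held the largest changes, and their other sets were not compared singly. BGN, the proteoglycan biglycan, had log2 signals of 9.34, 9.49 and 9.18 with NICD, 7.18, 7.20 and 7.02 with Notch1 L1601P+∆P, 6.28, 5.39 and 6.01 with full-length Notch1, and 5.56, 5.53 and 5.53 with vector. NICD was highest and Notch1 L1601P+∆P lay apart between NICD and the rest, at 3.80 ± 0.17 (limma adjusted p = 3.21e-09) and 1.60 ± 0.17 (limma adjusted p = 0.00011) against vector. SPARC, a collagen-binding matrix protein, rose by 2.45 with NICD, FN1, fibronectin, by 1.07 and DCN, decorin, by 0.36, while TGFBI fell by 0.36, which makes 4 higher and 1 lower of 7. DCN was also 1 of the 2 fibroblast markers called higher with NICD, the other being TWIST2. None of 7 collagen-degrading proteases was called with NICD by limma, or had an unadjusted p under 0.05. MMP14, the membrane-bound collagenase, averaged 7.79 with NICD and 8.06 with vector (limma adjusted p = 0.175).

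**Figure D4:**
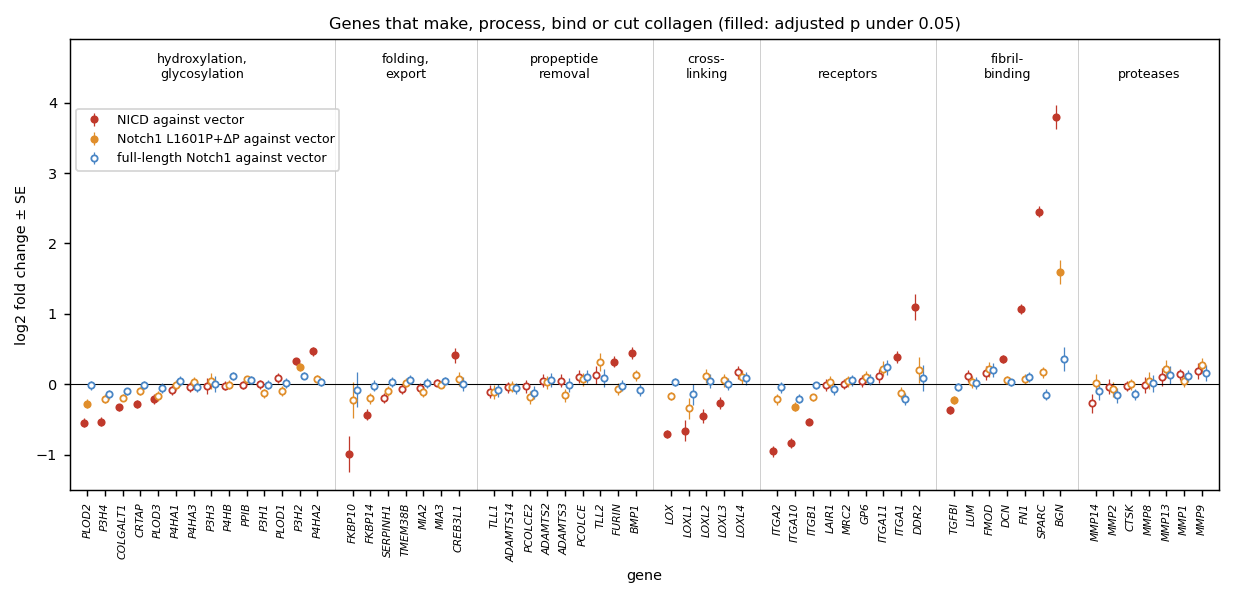
Log2 fold change against vector (vertical axis, bars are the standard error of the fit) of 58 genes that make, process, bind or cut collagen, in 7 lists from left to right, with NICD, Notch1 L1601P+∆P and full-length Notch1 side by side for each gene and filled points at a limma adjusted p under 0.05. BGN and SPARC stand highest with NICD, 4 of 5 lysyl oxidases lie below 0 with filled points, and the proteases have none for NICD.

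With Notch1 L1601P+∆P, 2 of the 58 genes rose (3.45%) and 3 fell (5.17%), beside 2.16% and 2.95% of all genes. P3H2 rose by 0.25 (limma adjusted p = 0.016) beside BGN, and ITGA10 (-0.32), PLOD2 (-0.27) and TGFBI (-0.22) fell. The number that fell was 0 without Notch1 L1601P+∆P replicate 1 or 2 and 1 without vector replicate 2 or 3, and the number that rose was 1 without vector replicate 2 or Notch1 L1601P+∆P replicate 2. With full-length Notch1 none of the 58 was called by limma, also under each alternative run. An unadjusted p under 0.05 was found for 5 of the 58, beside 5.32% of all genes.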

How the data were processed

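RNA of 12 MCF-10A samples was measured on Affymetrix arrays. The authors deposited log2 signals, made with RMA per the submitters' processing notes, which also name limma, in versions not given in the sources used here. RMA includes quantile normalization, so a shift of most genes one way cannot be seen, and dim signals are compressed. Gene names came from the platform annotation (41091 of 54675 probe sets with 1 symbol, 1801 with several, 11721 with none, 62 controls), of which 41037 matched a RefSeq gene number. COL17A1 was not analysed here.

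The brightest probe set stood for each of 19775 genes. limma 3.58.1 in R 4.3.3 (lmFit, contrasts.fit, eBayes) was fitted to all 12 arrays with 4 group means, 8 residual and 4.09 prior degrees of freedom, and 6 two-sided comparisons. The threshold for a call was 0.05 on p-values adjusted after Benjamini-Hochberg across all 19775 genes. Group means carry the SD, fold changes the standard error. The fit was tested on simulated data. The members, lists and tests were chosen with earlier results of these data known. Chains called against vector were given with their 12 values, up to 12 by size of change, then trimer partners, and up to 4 called genes a list and direction. Alternatives were the mean of a gene's probe sets, single probe sets, cyclic loess scaling, a filter on dim genes, trend and robust moderation, 2-group fits, a replicate block and leaving out each array.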

Additional observations from a re-analysis of the deposited data

How the results depend on the processing

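The number of chains called with NICD against vector, Notch1 L1601P+∆P or full-length Notch1 stayed within 1.5 times in every alternative run, and leaving out 1 array gave 8 to 11 higher and 7 to 8 lower chains against vector. With Notch1 L1601P+∆P against vector, 0 chains were higher as reported, against 3 on the mean of all probe sets, 1 with trend and robust moderation and 0 to 1 without 1 array, and the 6 lower ones became 4 to 6 without 1 array. Against full-length Notch1, Notch1 L1601P+∆P had 0 higher chains as reported, 3 on the mean of all probe sets, 1 with cyclic loess, 3 without dim genes, 3 with trend and robust moderation and 0 to 2 without 1 array. Its 6 lower chains became 3 on the mean of all probe sets, 2 in a 2-group fit, 2 with a replicate block and 2 to 6 without 1 array. Among the 58 other collagen genes, Notch1 L1601P+∆P against vector gave 2 higher, 1 in a 2-group fit and 1 to 2 without 1 array. It gave 3 lower, 5 on the mean of all probe sets, 1 with cyclic loess, 5 without dim genes, 6 with trend and robust moderation, 1 in a 2-group fit and 0 to 3 without 1 array. Against full-length Notch1 it gave 2 higher, 1 in a 2-group fit and 1 to 2 without 1 array, and 1 lower, 2 on the mean of all probe sets, 0 with cyclic loess, 3 without dim genes, 4 with trend and robust moderation, 0 in a 2-group fit, 0 with a replicate block and 0 to 1 without 1 array. The cause of these moves was not tested, except that 2-group fits and fits without an array have fewer samples.

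Of 99 checks of a called chain on a dimmer single probe set, 49 kept the call and 36 lost it without a change of sign. No called chain changed sign except in the other 14 checks, none of them called. These were COL27A1 (-0.0793 and -0.0629 with NICD against vector, -0.11 against Notch1 L1601P+∆P, -0.11 and -0.0827 against full-length Notch1), COL6A1 with NICD (-0.0639, -0.18 and -0.14 against Notch1 L1601P+∆P, -0.0361 against full-length Notch1), COL12A1 with Notch1 L1601P+∆P (0.0185 against vector, 0.0269 against full-length Notch1), COL8A1 with NICD against Notch1 L1601P+∆P (0.0822), and COL2A1 and COL9A1 with NICD against full-length Notch1 (0.0828 and 0.0430). Of 61 calls, 7 ended on the mean of all probe sets, 4 with cyclic loess and 6 in 2-group fits. Under cyclic loess the share of higher calls was 58.4% for Notch1 L1601P+∆P against vector (42.3% as deposited), 52.9% for NICD against full-length Notch1 (37.3%) and 62.5% for Notch1 L1601P+∆P against full-length Notch1 (50.1%).

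The labels number the replicates 1 to 3 in each group, but the numbers did not pair the arrays: of 18 same-number pairs, 1 had deviations correlated over 0.1 (r from -0.115 to 0.162), and 3 of 12 arrays correlated best with their own number. With the replicate block, 7 of 61 calls ended: COL4A5 and COL7A1 with Notch1 L1601P+∆P against vector (limma adjusted p = 0.0693 and 0.0742), COL9A1 with NICD against full-length Notch1 (0.0529), and COL12A1, COL16A1, COL4A5 and COL7A1 with Notch1 L1601P+∆P against full-length Notch1 (0.0609 to 0.0911). With it the chains called with NICD against vector were 9 higher and 7 lower. The 3 arrays per group and the compressed signal of the 22 chains under the median limit what could be called. Groups of 3 are too small for a check of single outlying arrays.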

Other observations

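Apart from the type IV pairs, 4 pairs of chain genes had no protein-coding gene between them in RefSeq. COL6A1 and COL6A2 on chromosome 21 both rose with NICD, of COL3A1 and COL5A2 on chromosome 2 COL5A2 alone was called, and neither member of COL6A5 and COL6A6 on chromosome 3 or of COL19A1 and COL9A1 on chromosome 6 was called against vector. COL3A1, the chain of type III collagen, averaged 4.395 with NICD and 4.25 with vector (0.14, limma adjusted p = 0.0579).

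A RefSeq window of 250 bases before a start was at hand for 31 of the 43 chains. GGGCGG on either strand was found for 21 of these chains (67.7%), CCAAT for 10 (32.3%) and TATAAA for 6 (19.4%). A chain with several windows counted if 1 of them held the letters, so these shares are not on the scale of the shares of single windows. The chains with both GGGCGG and CCAAT were COL4A1, COL4A2, COL5A3, COL4A6, COL11A1 and COL11A2. For COL4A6 and COL11A2 the 2 motifs lay in different windows, and the windows of COL4A1 and COL4A2 share the interval between their starts. With NICD the first 3 rose, COL4A6 fell, and COL11A1 and COL11A2 were not called. Of all 43 chains 9 rose and 7 fell, and a link between motifs and direction was not tested.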
